A study of Caenorhabditis elegans with 2 samples.

Results

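The genes described here are 10 genes of programmed cell death and corpse engulfment in Caenorhabditis elegans, out of 19973 protein-coding genes on the nuclear chromosomes: ced-1, ced-2, ced-3, ced-4, ced-5, ced-6, ced-7, ced-9, ced-10 and egl-1. The set was chosen on the signal of a peak in an intron of ced-7, the strongest of the peaks that hold a pair of CCAAT boxes, and the values of that peak are given as a description. All 10 genes matched the annotation by symbol. NFYA-1 is a subunit of NF-Y, the complex that binds CCAAT boxes, and its positions on chromatin were measured by ChIP-seq in whole late embryos. The embryos were hermaphrodites of strain OP404, with the unc-119 allele tm4063 and the insertion wgIs404, a transgene for NFYA-1 with GFP and FLAG at its C terminus. Sonicated chromatin was recovered with an anti-GFP antibody according to the sample description, whereas the antibody label reads nfya-1. The study has a single condition with 2 biological replicates, and the age of the embryos is given as unknown. The labels do not name the promoter of the transgene, and whole embryos mix cells of every fate, so a region cannot be placed in dying or engulfing cells.

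In the worm, the BH3-only protein EGL-1 binds the Bcl-2 homologue CED-9, which then releases the Apaf-1 homologue CED-4 to activate the caspase CED-3. Dying cells are engulfed by their neighbours through a pair of partly redundant branches. In the first, the receptor CED-1, the adaptor CED-6 and the ABC transporter CED-7 act in recognition of the corpse. In the other, the adaptor CED-2 and the exchange factor CED-5 activate the Rac GTPase CED-10, which reshapes the actin cytoskeleton. Most programmed cell deaths of the worm take place in the embryo.

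Each gene was given the stretch from 2 kb upstream of its annotated start to its annotated end in build WBcel235, called its window. A peak is a region of the authors' list of 4098 that passed their reproducibility analysis, and its signal is the authors' enrichment value, on a scale that is not given, with a median of 109 and a minimum of 58.2. A longer list made from both replicates pooled holds 15515 regions, background regions included, and a member of it that did not reach the peak list is called a region below the threshold. The lists of replicate 1 and replicate 2 hold 21476 and 28596 regions, and ranks are given by signal within each list, from 1 for the strongest. The lists hold no counts of reads, so the depth behind a signal is unknown.

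The sequence that carries the main result is the ced-7 intron copy of the paired box, shown with the same span of the ced-3 intron. Capitals mark every CCAAT box on either strand (CCAAT, or ATTGG where the box lies on the other strand). Read from the RefSeq copy of the genome, both are written 5′ to 3′ on the forward strand of WBcel235, while both genes are transcribed from the reverse strand. They lie at chrIII:9571011-9571123 and chrIV:13200150-13200262.

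ced-7: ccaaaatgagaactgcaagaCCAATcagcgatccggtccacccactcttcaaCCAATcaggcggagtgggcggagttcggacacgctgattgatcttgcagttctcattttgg

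ced-3: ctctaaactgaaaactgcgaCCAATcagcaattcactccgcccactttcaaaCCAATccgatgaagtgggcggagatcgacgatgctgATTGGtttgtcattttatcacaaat

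A peak lay in the windows of 6 of the 10 genes, ced-2, ced-3, ced-5, ced-6, ced-7 and ced-9, with 1 peak each. Over all protein-coding genes the same count was 4104 of 19973, or 20.5%. The ced-7 peak was fixed by the choice of the genes, and without ced-7 a peak lay at 5 of 9. Windows of the 10 genes ran from 3052 to 18552 bp with a median of 5752 bp, against a median of 4027 bp over all genes. Among the 15692 genes with a window length in that range, 21.3% held a peak. The range keeps most of the 19973 genes, so window length is matched only loosely. The counts move with the upstream reach of the window, as do those of all genes. With 1 kb upstream 3 of the 10 genes held a peak, or 2 of 9 without ced-7, against 16.7% of all protein-coding genes. With 500 bp upstream the counts were again 3 of 10 and 2 of 9, against 14.5%. In the gene body alone they were 2 of 10 and 1 of 9, against 5.38%. By function, 2 of the 4 killing genes (ced-3 and ced-9), 2 of the 3 genes of the recognition branch (ced-6 and ced-7) and 2 of the 3 genes of the Rac branch (ced-2 and ced-5) held a peak. The median signal of the strongest peak was 142 over the 6 genes, 135 over the 5 other than ced-7, and 119 over all genes with a peak.

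**Figure D1:**
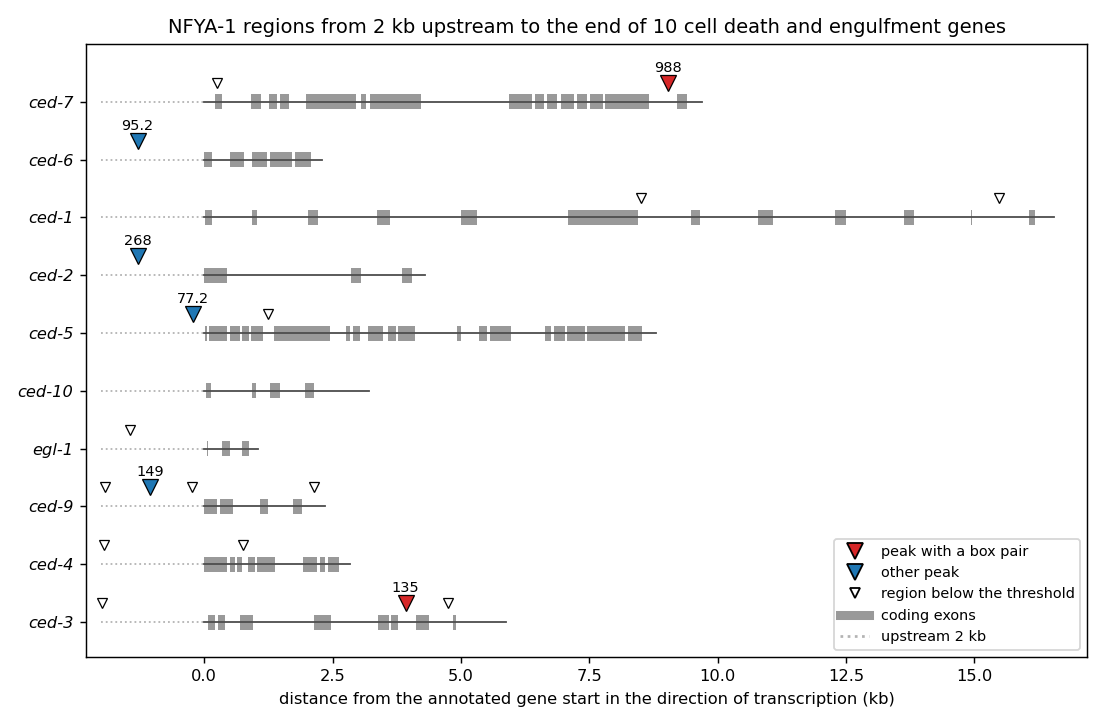
Regions at the 10 genes, with distance from the annotated gene start in kb on the horizontal axis and 1 gene per row; filled triangles are summits of peaks with their signal, red for peaks with a box pair, open triangles are summits of regions below the threshold, and grey boxes are coding exons. The ced-7 peak, with signal 988, and the ced-3 peak, with signal 135, lie inside the genes, and the other 4 peaks lie upstream.

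Only ced-5 had a peak at a promoter, taken as 500 bp upstream to 100 bp downstream of any transcript start. That is 1 of 10 genes, against 11.2% of all protein-coding genes. In 3 of the 6 windows, those of ced-3, ced-5 and ced-6, the nearest protein-coding transcript start to the summit was the gene's own. The same share over all genes was not computed, so this count is a description only.

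The ced-7 peak (chrIII:9570904-9571198, summit at 9571054) had a signal of 988 and ranked 23 in the peak list. Its replicate values were a signal of 529 at rank 22 in replicate 1 and 462 at rank 23 in replicate 2, so its place was nearly the same in both lists. ced-7 (WBGene00000421, chrIII:9570390-9580089, reverse strand) encodes an ABC transporter needed in both the dying and the engulfing cell. The summit lay in the last of the 14 introns of the annotated transcript with the most exons among those spanning it, an intron of 540 bp. It was 9035 bp downstream of the gene start and 664 bp before the gene end. The nearest transcript start of ced-7 lay 8066 bp away, and the nearest of any coding gene, that of C48B4.13, lay 2303 bp away, so this is not a promoter peak in the annotation.

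The pair of the ced-7 peak has its box centres 21 bp to the left and 11 bp to the right of the summit. The boxes start 32 bp apart on the same strand, which is the strand opposite to the gene. The 20 bp before the first box return, inverted and without a mismatch, at the far end of the 113 bp shown, from position 9571104 to 9571123. Carried on into the first box, the repeat extends to 30 bp with 29 matches. The single mismatch, at position 21 from the outer end, falls in the mirrored copy of the first box, which carries C1T, counted from the first base of the box on its own strand. Of the 298 paired-box peaks in the list, 9 were found with a perfect inverted arm of 20 bp or longer, that of ced-7 included. The median arm found was 9 bp and the longest 27 bp. For pairs on the reverse strand the search stopped an arm at the first box, so longer arms there could be missed. How rare an arm of 20 bp is cannot be read from this count.

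The ced-3 peak also holds a pair with the same spacing. It is the other peak in the 10 windows that does, so 2 of 6 peaks were paired, against 298 of 4084 peaks or 7.3%, and 2 of 10 genes held a paired-box peak, against 1.23% of all protein-coding genes. The ced-7 pair chose these genes, and nothing is read from these counts. ced-3 (WBGene00000417, chrIV:13198261-13204137, reverse strand) encodes the caspase that carries out the killing. Its peak (chrIV:13200037-13200392, summit at 13200215) had a signal of 135 and ranked 1507, with a signal of 56.5 at rank 2111 in replicate 1 and 74.5 at rank 1189 in replicate 2. By signal it stood at 194 of the 298 paired-box peaks. The summit lay in intron 6 of 7 of the spanning transcript with the most exons, an intron of 354 bp, and 1674 bp from the nearest start of ced-3.

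Over the 113 positions shown, 69 bases are the same without gaps, and 19 of the 27 bases between the boxes are. At ced-3 the boxes are centred 43 and 11 bp to the left of the summit. The mirrored box on the other strand, absent as an exact box at ced-7, is centred 25 bp to the right. The ced-3 first box and its mirror form a perfect inverted repeat of 11 bp, and the long outer arms of ced-7 are not repeated there. Such a mirrored box, starting 68 bp after the start of the first box, was present at 113 of the 298 paired-box peaks (37.9%). At both genes the pair faces against the direction of transcription. Over the 197 paired-box peaks in introns of coding genes, the pair lay on the opposite strand in 82 cases (41.6%) and on the strand of the gene in 113, with 2 where genes of both strands overlap.

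The other 4 peaks lie upstream of their genes and hold either a single site or no box. The summit windows of ced-5 and ced-6, 50 bp to each side, are shown because they hold CCAAT outside the paired arrangement. They are written on the strand of the gene, the forward strand, at chrIV:10483840-10483940 and chrIII:5594424-5594524.

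ced-5: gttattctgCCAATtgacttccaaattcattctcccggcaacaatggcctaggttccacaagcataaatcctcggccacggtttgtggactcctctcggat

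ced-6: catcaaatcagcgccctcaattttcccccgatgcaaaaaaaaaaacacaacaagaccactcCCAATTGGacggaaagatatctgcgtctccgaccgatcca

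The ced-5 peak (summit at chrIV 10483890) was the weakest of the 6, with a signal of 77.2 at rank 3071. It had a signal of 34.3 at rank 3837 in replicate 1 and 42.5 at rank 2658 in replicate 2. ced-5 (WBGene00000419, chrIV:10484110-10492913) encodes the homologue of DOCK180, the exchange factor that acts on Rac. The summit lay 220 bp upstream of the ced-5 start and 233 bp upstream of the start of F01D4.5, which is transcribed the other way, so the peak cannot be given to either gene alone. Its box is centred 39 bp to the left of the summit.

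The ced-6 peak (summit at chrIII 5594474) had a signal of 95.2 at rank 2375, with 57.0 at rank 2091 in replicate 1 and 36.8 at rank 3102 in replicate 2. ced-6 (WBGene00000420, chrIII:5595771-5598061) encodes the adaptor that acts downstream of the CED-1 receptor. The summit lay 1297 bp upstream of the gene and 73 bp past the annotated end of ucr-1, a gene of the respiratory chain on the same strand. The boxes here are a single palindrome, in which the forward and the reverse box overlap, centred 13 and 16 bp from the summit.

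The ced-2 peak (chrIV:1595937-1596030, summit at 1596026) was the strongest after that of ced-7, with a signal of 268 at rank 452. It had a signal of 131 at rank 544 in replicate 1 and 139 at rank 378 in replicate 2. ced-2 (WBGene00000416, chrIV:1597318-1601621) encodes the CrkII-like adaptor that works with CED-5. The summit lay 1292 bp upstream of ced-2 but 202 bp upstream of npp-8, a nucleoporin gene transcribed the other way, so that npp-8 is the nearer gene. The region is 94 bp wide with its summit 4 bp from an end, and it holds no CCAAT.

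The ced-9 peak (summit at chrIII 10334126) had a signal of 149 at rank 1281, with 77.2 at rank 1360 in replicate 1 and 71.3 at rank 1296 in replicate 2. ced-9 (WBGene00000423, chrIII:10335172-10337522) encodes the Bcl-2 homologue that protects cells from death, and it lies downstream of mev-1, also known as cyt-1, a succinate dehydrogenase gene with which it is transcribed as an operon. The annotated end of mev-1 and the start of ced-9 are 3 bp apart. The summit lay 1046 bp upstream of ced-9, 151 bp upstream of mev-1 and nearer still to the start of jmjd-4, which lies on the other strand. The peak therefore stands at the start of the operon rather than next to ced-9 itself, and CCAAT is absent from it.

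A CCAAT box lay 50 bp or less from the summit in 4 of the 6 peaks, those of ced-3, ced-5, ced-6 and ced-7, against 32.9% of all nuclear peaks. The box of ced-7 was fixed by the choice of the genes, and without it the count was 3 of 5. By gene, 4 of 10 held a peak with the box, and 3 of 9 without ced-7, against 6.33% of all protein-coding genes. In the upper 50% of peaks by signal the box was at 2 of the 4 member peaks, those of ced-3 and ced-7. The share over all peaks in that upper 50% was not computed, so nothing is read from this count. The 10 windows hold 205 boxes over 76978 bp, or 2.66 per kb, against 2.42 per kb in the nuclear genome, and 8 of the 205 lay within 50 bp of a peak summit. Most boxes at these genes were thus not at a peak: ced-1 has 39 and ced-10 has 14 in the window, and neither gene has a peak. The same holds for the nuclear genome, with 242432 boxes but 1342 peaks that have a box 50 bp or less from the summit. The GC content over 50 bp to each side of the 6 summits ran from 45.5% to 52.5%, against a median of 48.5% over all nuclear peaks.

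**Figure D2:**
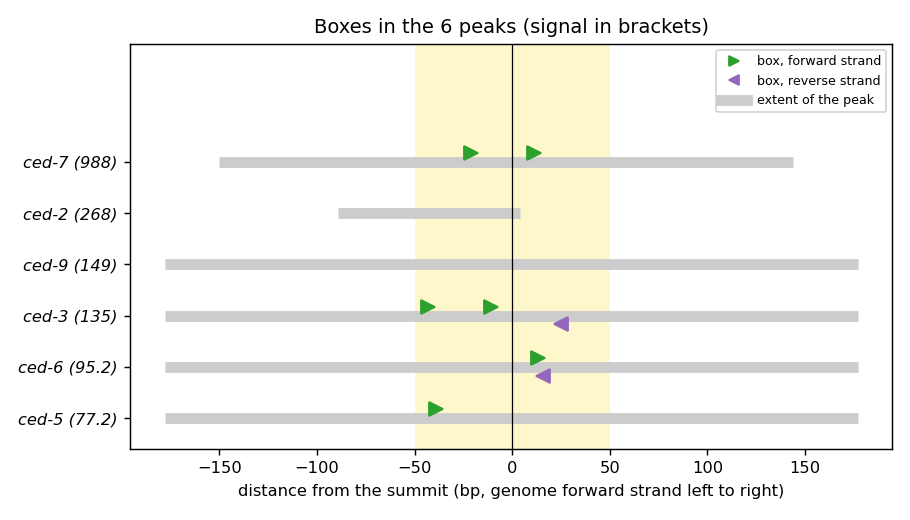
CCAAT boxes in the 6 peaks, with distance from the summit in bp on the horizontal axis and the signal in brackets beside each gene; triangles are boxes by strand, grey bars the extent of the peak, and the shaded band 50 bp to each side of the summit. The pairs of ced-7 and ced-3 lie on the forward strand, and the peaks of ced-2 and ced-9 hold no box.

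No peak lay in the windows of ced-1, ced-4, ced-10 and egl-1, and regions below the threshold were found at ced-1, ced-4 and egl-1. In the pooled list 9 of the 10 windows held a region, and 8 of 9 without ced-7, against 46.2% of all protein-coding genes. The count was 6 of 10 with 1 kb upstream, with 500 bp upstream and with the gene body alone. For these narrower windows, and for genes of like window length, the pooled share over all genes was not computed. The 10 windows held 18 regions in all. This is 23.4 per 100 kb of window, against 15.5 per 100 kb in the nuclear genome. For peaks alone the densities were 7.79 per 100 kb of window, and 7.66 without ced-7, against 4.07 per 100 kb in the nuclear genome. The genome figures also cover sequence outside every gene window, so these densities compare unlike stretches. The density over the windows of all protein-coding genes was not computed.

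The 12 regions below the threshold had signals from 23.7 to 53.9. Of these, 4 were found in both replicates' lists, 3 in that of replicate 1 only and 5 in that of replicate 2 only. The 6 peaks were found in both, but a peak had to pass the reproducibility analysis, so nothing is read from this contrast. The box lay that near to the summit in 4 of the 12, those at ced-4, ced-5, ced-7 and ced-9, against 21.9% of all nuclear regions below the threshold. The nearest to the threshold was at ced-4 (WBGene00000418, chrIII:4852325-4855171), the Apaf-1 homologue, with a signal of 53.9 at rank 4468 of the pooled list. It ranked 11451 in replicate 1 and 2957 in replicate 2. On the other side of the threshold, the ced-5 peak at 77.2 was the nearest. The ced-4 summit lay 1959 bp upstream of ced-4 and 141 bp upstream of F26A1.1, and a box was centred 20 bp from it. A further ced-4 region, in intron 3, had a signal of 24.2 and was found in replicate 1 only. In ced-5, a region in intron 5 with a signal of 26.8 was found in replicate 2 only, and it held boxes 35 bp to the left and 22 bp to the right of its summit.

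egl-1 (WBGene00001170, chrV:14431308-14432359), whose transcription is the switch for many cell deaths, had 1 region below the threshold, 1439 bp upstream, with a signal of 29.8. It ranked 8830 in replicate 1 and 20665 in replicate 2, and none of the 4 boxes in the region lay within 50 bp of its summit. Regulatory sequence downstream of egl-1 falls outside the window and was not examined. The receptor gene ced-1 (WBGene00000415) had 2 intron regions with signals of 28.4 and 23.7, both found in replicate 2 only and neither with a box. In a coding exon of ced-7, 241 bp downstream of the annotated gene start, lay a region with a signal of 29.7. Its summit was 8 bp upstream of another transcript start of ced-7, and it was found in replicate 2 only, at rank 5705. ced-9 had 3 further regions and ced-3 had 2, with signals from 26.9 to 41.4. Their nearest transcript starts were those of T07C4.12, ced-9 and ttr-15 at ced-9, and of C48D1.1 and ced-3 at ced-3. ced-10 (WBGene00000424, chrIV:3506328-3509527), the Rac gene, had no region in either list.

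**Figure D3:**
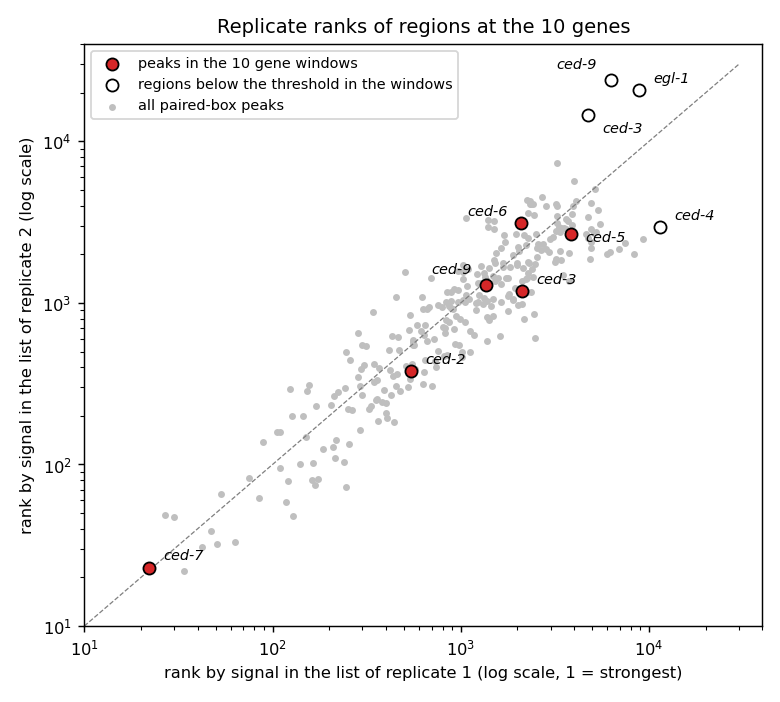
Rank by signal in replicate 1 (horizontal, log scale) and replicate 2 (vertical, log scale) of the 10 regions at these genes found in both replicates; red points are the 6 peaks, open points 4 regions below the threshold, grey points all paired-box peaks, and the dashed line marks equal ranks. The 6 peaks lie near the line, with ced-7 at 22 and 23, and the open points lie farther from it. Selection of the peaks for reproducibility favours this difference.

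The spacing of the ced-7 and ced-3 boxes is the most frequent in the peak list. Boxes on the same strand with starts 32 bp apart, both within 100 bp of the summit, occurred at 298 peaks, against 25 at 31 bp and 16 at 33 bp. Paired-box peaks had a median signal of 171 and other peaks of 105. The ced-7 peak led them at 988 in the peak list, was first among them in replicate 1 and second in replicate 2, where it ranked 23 and the peak in an intron of pptr-1 ranked 22. Allowing spacings of 31 to 33 bp put the ced-7 peak at 3 in this order.

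**Figure D4:**
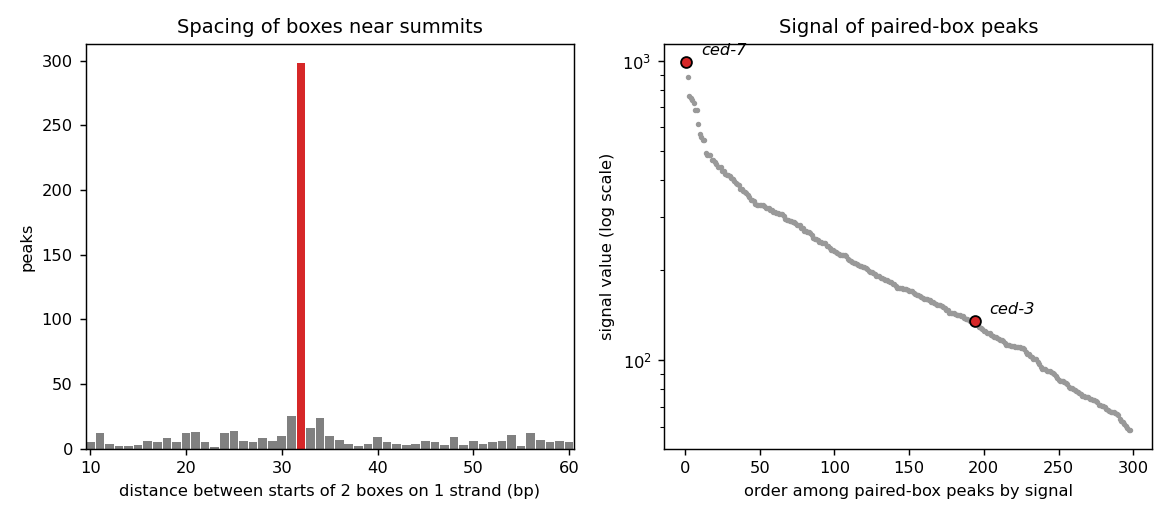
Left, number of peaks (vertical) by the distance in bp between the starts of 2 boxes on the same strand; right, signal (vertical, log scale) of the 298 paired-box peaks in order of signal. The bar at 32 bp reaches 298 peaks, and ced-7 and ced-3, in red, stand at 1 and 194 in the order.

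The copies next in signal to that of ced-7 show how far the sequence between and around the boxes is shared. They lie in introns of pptr-1 (signal 880, chrV:16361526-16361602, reverse strand) and tbc-14 (764, chrII:13446732-13446808, forward strand), and between genes near plpp-1.1 (753, chrII:3930653-3930729, reverse strand), sup-26 (738, chrIII:4282192-4282268, reverse strand) and efa-6 (723, chrIV:12617109-12617185, reverse strand). Each line runs 5′ to 3′ on the strand of the pair with 20 bp to each side, and capitals mark the boxes.

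ced-7: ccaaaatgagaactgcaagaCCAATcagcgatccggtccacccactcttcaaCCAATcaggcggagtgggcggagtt

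pptr-1: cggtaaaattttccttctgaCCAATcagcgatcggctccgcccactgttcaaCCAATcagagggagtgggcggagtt

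tbc-14: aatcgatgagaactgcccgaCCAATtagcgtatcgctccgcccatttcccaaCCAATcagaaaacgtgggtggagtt

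plpp-1.1: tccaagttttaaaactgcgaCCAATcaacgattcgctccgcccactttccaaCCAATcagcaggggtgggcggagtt

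sup-26: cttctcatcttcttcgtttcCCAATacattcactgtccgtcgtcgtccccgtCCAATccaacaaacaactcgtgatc

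efa-6: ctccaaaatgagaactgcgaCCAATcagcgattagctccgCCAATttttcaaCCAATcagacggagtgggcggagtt

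Over the 77 positions, 10 of which are fixed by the boxes, the ced-7 copy shared 57 with pptr-1, 54 with tbc-14, 56 with plpp-1.1 and 56 with efa-6, and 25 with sup-26. Positions were compared without gaps, so a shifted stretch, such as the flank before the first box near efa-6, mostly counts as different. The peak near sup-26 therefore has the spacing without the surrounding sequence, and the copy near efa-6 has a further box between the pair. The median over the other 297 paired-box peaks was 52 of 77, the value of ced-3 too, with a range from 24 to 67. The copies most like that of ced-7 were in or near tsen-2 (67 of 77), cnt-2, F48E8.2 and hpo-39 (66 each) and tat-3 (65), with signals of 111, 486, 413, 313 and 330. The copy in an intron of trf-2, with a signal of 224, also shared 65. The most like, in an intron of tsen-2, thus had a signal far below that of ced-7, and is shown (chrIII:11896855-11896931, reverse strand) with that in cnt-2 (chrIII:10658570-10658646, reverse strand).

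tsen-2: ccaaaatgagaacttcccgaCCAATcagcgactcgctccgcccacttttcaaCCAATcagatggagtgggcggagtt

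cnt-2: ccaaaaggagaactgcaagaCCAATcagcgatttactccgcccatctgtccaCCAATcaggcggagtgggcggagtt

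The nuclear genome holds 1139 pairs with this spacing, and a peak summit lay within 100 bp of the middle of 347 of them (30.5%). Both pairs in the 10 windows were among the 347. Of the 310 pairs that shared at least 47 of the 77 positions with the ced-7 copy, 241 (77.7%) were at a peak, and of the 829 less like it 106 (12.8%) were. The limit of 47 is the lower quartile of the paired-box peaks themselves, so these shares describe the copies and test nothing.

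Other genes of cell death and corpse clearance were taken from a list of 80 genes, all matched. Of these, 36 (45%) held a peak in the same window, against the 20.5% of all protein-coding genes given above, and 61 (76.2%) a pooled region, against 46.2%. With 500 bp upstream 23 held a peak, or 28.8%, against 14.5% of all protein-coding genes, and in the gene body alone 6 (7.5%), against 5.38%. The median window was 5679 bp, and the median signal of the strongest peak 129. Peaks with CCAAT were found at 10 of the 80 (12.5%), against 6.33% of all protein-coding genes, and promoter peaks at 20, against 11.2%.

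The strongest was at tat-1 (signal 492, rank 95), the flippase that keeps phosphatidylserine, the eat-me signal of corpses, on the inner leaflet of the membrane. Next were icd-1 (403), whose product represses apoptosis, crn-1 (396), a nuclease gene of DNA degradation, and chat-1 (387), the partner of TAT-1. They were followed by unc-108 (299), the Rab2 gene of phagosome maturation, lst-4 (250.2), a sorting nexin gene, the E2F gene efl-1 (242) and rab-5 (209.9), whose product acts on early phagosomes. The summits of tat-1, icd-1, unc-108, efl-1 and rab-5 were nearest to the gene's own start, at 202, 454, 528, 178 and 697 bp. That of tat-1 lay downstream of the start and the others upstream. The unc-108 summit was upstream of its nearest start only, since it lay in an intron of unc-108. The summits of chat-1, lst-4 and crn-1 lay nearer to the starts of wapl-1 (174 bp), ccar-1 (445 bp) and Y47G6A.9 (1010 bp). Of the strongest peak of each of these 8 genes, those of tat-1, crn-1, lst-4 and rab-5 held CCAAT within 50 bp of the summit.

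Paired-box peaks stood in the windows of 4 of these 80 genes (5.0%): tat-1, crn-1, efl-1 and wah-1, the apoptosis-inducing factor gene, which was named after its values were seen. Those of tat-1, efl-1 and wah-1 lay in introns of the gene, like those of ced-7 and ced-3, and that of crn-1 in an intron of the neighbouring Y47G6A.9. tat-1 (WBGene00013034, chrIII:12398901-12421718) held 3 of them, 202, 780 and 5928 bp downstream of its nearest start, with signals of 492, 125 and 290. Among all protein-coding genes 246 held at least 1 paired-box peak and 13 at least 3. The signals were 224 at efl-1, which is not its strongest peak, and 118 at wah-1. The copies in tat-1 with the highest signal and in wah-1 are shown for comparison with ced-7, and they shared 54 and 58 of the 77 positions with it. They lie on the forward strand at chrIII:12420377-12420453 and chrIII:11995964-11996040.

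tat-1: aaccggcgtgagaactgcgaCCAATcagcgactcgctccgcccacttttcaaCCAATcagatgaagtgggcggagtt

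wah-1: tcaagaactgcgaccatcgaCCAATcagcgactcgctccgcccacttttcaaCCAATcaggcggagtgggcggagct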

How the data were processed

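Peak lists of 1 group with 2 biological replicates were used, in build ce11 (WBcel235). Per the listings deposited with the samples, the authors made lists of peaks and background regions from the alignments of each replicate and of both replicates pooled, each together with 1 further file whose content is not stated, and a list of the regions that passed a reproducibility analysis (IDR). The deposited signal value of each region is an enrichment signal of the caller on an unstated scale, and was used only within a list. For the aligner, the caller, its thresholds and the promoter of the transgene, the labels and listings give no name. The signal of a region in a replicate is that of the strongest region holding its summit.

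Coordinates are 1-based. Every region ended within the chromosome lengths of WBcel235. The gene models are those of Ensembl release 115, and bases were read from RefSeq's WBcel235 assembly. Lists in ce10 were not used. CCAAT was searched on both strands, overlaps included, with pandas 2.3.3 and Python 3.11.15 scripts that were tested on simulated data. No test was run, since there is 1 condition. The genes, the list of 80 and the alternatives were chosen with earlier results of these data known. Named are the 10 genes, genes nearest to their summits, the 8 strongest of the 80, and the 5 paired-box peaks next in signal and the 5 most like that of ced-7, with a copy tied for the fifth place; others are marked in the text. The spacing, the mirrored box, the inverted arms and the limit of likeness were examined after the values were seen.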

Additional observations from a re-analysis of the deposited data

How the results depend on the processing

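Of 74 alternatives to the counts and the rank, 54 stayed within 1.5 times the reported value and 20 did not. The number of genes with a peak and the number of peaks, both 6, were 3 with 1 kb upstream, 3 with 500 bp upstream and 2 with the gene body alone, since 4 of the peaks lie upstream. Both were 3 when a peak counted only where its nearest coding start was the gene's own. This alternative was chosen after seeing the data and was not computed over all genes. Peaks with CCAAT, 4 of 6, were 2 of 2 with the gene body alone and 2 of 4 in the upper 50% by signal. Genes with a promoter peak were 0 in place of 1 in that upper 50%. Pooled regions, 18 in all, were 11 with 1 kb or 500 bp upstream, 9 with the gene body alone and 9 in the upper 50% of that list. Genes with a pooled region, 9 in all, were 6 with 1 kb or 500 bp upstream and 6 with the gene body alone. Those values are at the limit of 1.5 times and were counted as within it. Of the 80 other genes, 36 held a peak, 23 with 500 bp upstream, 6 with the gene body alone and 23 in the upper 50% by signal. The ced-7 peak ranked 1 among paired-box peaks, 3 with spacings of 31 to 33 bp and 1 to 2 by the signal of a single replicate. The wider spacings admit further peaks to this order, and in replicate 2 the pptr-1 peak ranked 22 and the ced-7 peak 23. Why the order differs between the replicates was not tested. To leave out a replicate, peaks had to be among the 4098 strongest regions of the other, and pooled regions had to be in its list; the 10 genes then held 6 peaks either way and 13 to 15 pooled regions. No paired analysis was possible because there is 1 group. Depth is unknown, so whether the regions found in 1 replicate only reflect depth was not tested.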
